A study of Homo sapiens with 14 samples.

Results

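Transcripts of 33 genes that act in G2 and mitosis were followed in HEK293, a human embryonic kidney cell line, after stable transfection with HOXD9 or HOXD13. The genes were taken from a list of mitotic cyclins, kinases, checkpoint proteins, kinetochore and spindle proteins, and each was read by 1 probe set, the brightest on average over the 14 arrays among those annotated to that gene alone. Of the 33 genes, 31 passed the filter on low values (a log2 value of at least 5 on at least 3 arrays) and were tested among 10349 genes in all. The 4 groups were HEK293 carrying an HA-tag vector (3 arrays), an HA-tagged HOXD9 vector (4 arrays), a V5-tag vector (3 arrays) and a V5-tagged HOXD13 vector (4 arrays). Cells of every group had been selected with the antibiotic G418, which spares cells that carry the plasmid. The HOXD9 and HOXD13 groups each held a mixed population, called the mix, and 3 single clones (a, b and c) taken out of it, so the lines of a group are partly related. The promoter that drives the transgenes is not given in the sources used here. The vector arrays are labelled biological replicates, but nothing says that they came from separate cultures, and p-values then measure only the spread between these samples, which may be technical. The question, as far as the title gives it, concerns the HOXD genes in cancer caused by carbon nanotubes.

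The values are log2 expression values, 1 per probe set, with no depth, and the number of arrays limits the precision. The HA arrays and the V5 arrays had been normalized as separate sets, so a level is compared only with the vector arrays of its own tag. The transgenes were checked first. Of 2 HOXD9 probe sets, 1 read 6.99 ± 0.52 (SD, n = 4) in the HOXD9 lines against 2.73 ± 0.18 (n = 3) in the HA vectors, while the other, the brighter over the 14 arrays, read 4.40 ± 0.09 against 4.22 ± 0.02 and was not called (0.19, adjusted p = 0.653). All 3 HOXD13 probe sets were called higher in the HOXD13 lines, and the one with the largest difference read 12.43 ± 0.17 (n = 4) against 6.93 ± 0.09 (n = 3) in the V5 vectors. Of 7 epithelial and neuronal markers known from HEK293, 5 passed the filter (KRT8, KRT18, NEFL, INA and CDH2). The markers of leukocytes (0 of 3 measured) and endothelium (0 of 4) did not, and of 5 fibroblast markers COL1A1 alone did.

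Mitotic genes are switched on late in the cell cycle. In G0 and G1 the DREAM complex, with E2F4 or E2F5 and a pocket protein, holds their promoters silent through the cell cycle genes homology region (CHR), and from S phase onwards the MuvB core joins MYBL2 and FOXM1 to activate the same promoters. The trimeric factor NF-Y binds CCAAT boxes beside the CHR. The proteins then drive entry into mitosis, attach chromosomes to the spindle, delay anaphase until all are attached and split the cell. The bulk level of such a transcript reflects both the share of cells in G2 and M and the amount of RNA per cell, and these cannot be told apart here.

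The promoters of the 3 genes that were called in the HOXD13 comparison are printed here because the CHR and CCAAT letters lie close together in them. Each sequence is the 250 bases before the annotated start in RefSeq GRCh38.p14, 5′ to 3′ on the gene's strand, and positions are counted with the start base as 0. Capitals mark CHR matches (TTTGAA) and CCAAT matches, a CCAAT on the other strand reading ATTGG. In MKI67, the last run of capitals is a CHR that shares 1 base with an inverted CCAAT.
CCNB2, chr15:59104896-59105145, plus strand: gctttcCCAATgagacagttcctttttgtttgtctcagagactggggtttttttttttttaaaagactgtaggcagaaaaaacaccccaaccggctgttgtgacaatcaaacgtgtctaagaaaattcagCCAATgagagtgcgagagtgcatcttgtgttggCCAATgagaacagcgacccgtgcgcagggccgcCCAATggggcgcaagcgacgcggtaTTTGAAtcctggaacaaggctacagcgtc
PRC1, chr15:90994536-90994785, minus strand: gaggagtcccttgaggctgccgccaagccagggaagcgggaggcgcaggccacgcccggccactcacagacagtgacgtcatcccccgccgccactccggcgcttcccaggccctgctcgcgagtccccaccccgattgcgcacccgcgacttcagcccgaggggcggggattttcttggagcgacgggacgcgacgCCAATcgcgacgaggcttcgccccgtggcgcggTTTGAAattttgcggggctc
MKI67, chr10:128126424-128126673, minus strand: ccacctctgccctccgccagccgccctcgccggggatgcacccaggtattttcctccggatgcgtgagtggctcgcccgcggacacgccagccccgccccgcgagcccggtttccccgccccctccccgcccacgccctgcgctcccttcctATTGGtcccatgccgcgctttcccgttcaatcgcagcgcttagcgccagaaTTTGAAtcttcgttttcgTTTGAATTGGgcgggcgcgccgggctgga

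CCNB2 held a CHR at -29 and CCAAT boxes at -244, -120, -87 and -54, the last 3 spaced by 33 bases each. PRC1 held a CHR at -20 and a CCAAT box at -53. MKI67 held CHR matches at -47 and -29 and inverted CCAAT matches at -98 and -24. RefSeq promoters of 300 bases (250 before to 50 after the start) were matched for 27 of the 33 genes and counted 31, since 4 genes had 2 starts. TTTGAA, on either strand, was found in 22 of the 31 (71.0%), against 15.2% of 35116 promoters of the same length. CCAAT, on either strand, was found in 26 (83.9%) against 34.6%, and both in 18 (58.1%) against 5.90%. The E2F-like letters GGCGGGAA or TTTGGCGC stood in 3 (9.68%) against 3.78%. CCAATAAA, letters that contain CCAAT and that posterior HOX proteins favour in vitro, stood in 0 of the 31 against 0.934% of all promoters, a motif chosen after the other results were seen. A match is a string of letters and was not measured as a bound site.

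In the HOXD13 lines MKI67 was called higher on its brightest probe set, CCNB2 (cyclin B2) and PRC1 (a microtubule bundler of the central spindle) fell, and 28 of the 31 tested genes did not pass. Calls are limma's tests adjusted by Benjamini-Hochberg over all 10349 genes at 0.05. Among all genes 10.6% were called, 2.88% higher and 7.76% lower, so the share of the mitotic genes (3 of 31) was near the background. The median log2 fold change of the 31 genes was -0.11, against -0.03 over all genes tested. In the HOXD9 lines limma called 0 of the 31 genes, against 0.00966% of all genes (1 gene), and 6 had an unadjusted p under 0.05, against 23.5% of all genes. Their median was 0.07, against 0.08 over all genes. In the HOXD13 comparison 6 had an unadjusted p under 0.05, against 27% of all genes.

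**Figure D1:**
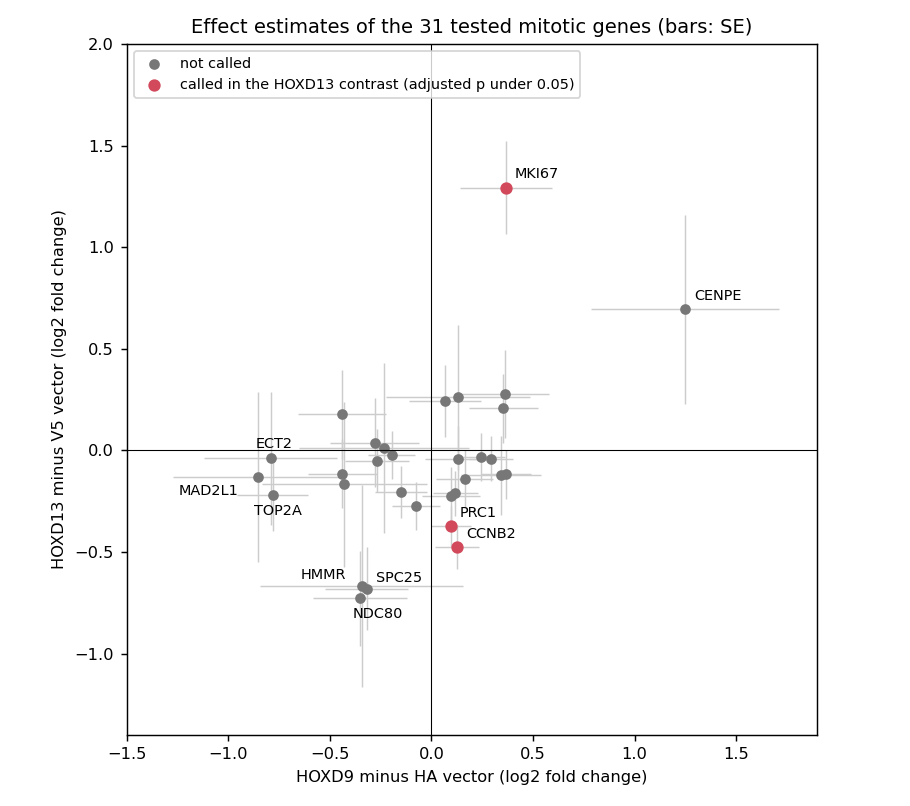
Log2 fold change of the 31 tested mitotic genes in the HOXD9 lines (x, minus HA vector) against that in the HOXD13 lines (y, minus V5 vector), 1 point per gene, with bars for the standard error. MKI67 (1.29), CCNB2 (-0.48) and PRC1 (-0.37) are the 3 genes called in the HOXD13 comparison, and CENPE is the gene farthest to the right (1.25, not called, under 5 on all 7 arrays of the HA set).

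Among the cyclins and their kinase, CCNB2 moved in 1 direction in all HOXD13 lines while CDK1 and CCNB1 split. Cyclin B2 activates CDK1 at the Golgi and in the cytoplasm. CCNB2 stood at 10.72, 10.67 and 10.69 in the V5 vectors and at 10.30, 10.00, 10.18 and 10.39 in the HOXD13 mix and clones a to c. All 4 lines lay below all 3 vectors. It fell by 0.48 (SE 0.11, 1.39-fold, adjusted p = 0.0159), a call that ended without any 1 of the V5 vectors or without clone a (adjusted p up to 0.0741). In the HA vectors it stood at 9.99, 9.98 and 10.04, and in the HOXD9 mix and clones a, b and c at 10.06, 10.24, 9.98 and 10.24, so these groups overlapped (log2 fold change 0.13, adjusted p = 0.438). The effects differed, the HOXD9 effect being higher by 0.60 (SE 0.15, adjusted p = 0.0279). That call ended without any 1 of the 6 vector arrays or without HOXD13 clone a (adjusted p up to 0.0791). In any such difference of effects the HOX gene, the tag and the normalization set change together and cannot be told apart.

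CDK1, the kinase that drives entry into mitosis, read 11.73, 11.82 and 11.75 in the V5 vectors and 11.94, 11.20, 11.15 and 12.85 in the HOXD13 mix and clones a, b and c. Clones a and b lay below the vectors and the mix and clone c above, and the group means were nearly equal (log2 fold change 0.01, SE 0.42, adjusted p = 0.992). In the HA vectors it read 10.59, 10.68 and 10.65, and in the HOXD9 lines 10.77, 9.96, 11.33 and 9.57, with clone b and the mix above and clones a and c below (-0.23, adjusted p = 0.713). On its other tested probe sets clone c was also below, but clone a lay above the HA vectors. Clone a read 9.49 against 9.29 ± 0.04 and 9.19 against 8.91 ± 0.03, and the HOXD9 estimates were 0.08 and 0.12. CCNB1, cyclin B1 and the main mitotic partner of CDK1, read 11.01, 10.96 and 10.97 in the V5 vectors and 10.88, 11.01, 11.22 and 10.63 in the HOXD13 lines, on both sides of the vectors (-0.04, adjusted p = 0.905). Its HA vectors read 10.58, 10.51 and 10.58 and the HOXD9 lines 10.70, 10.45, 10.50 and 11.12 (0.13, adjusted p = 0.592). The B cyclins therefore did not share a pattern: CCNB2 was below the vectors in all HOXD13 lines and CCNB1 in the mix and clone c. CCNA2, cyclin A2 of S phase and G2, read 10.91 ± 0.17 in the HOXD13 lines against 11.02 ± 0.05. In the HOXD9 lines it read 9.91 ± 0.37, and all of them lay below the HA vectors at 10.35 ± 0.02 (-0.44, adjusted p = 0.167). This held on its brightest probe set only. On the other tested CCNA2 probe set the HOXD9 lines overlapped the HA vectors, and the estimate was -0.06.

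**Figure D2:**
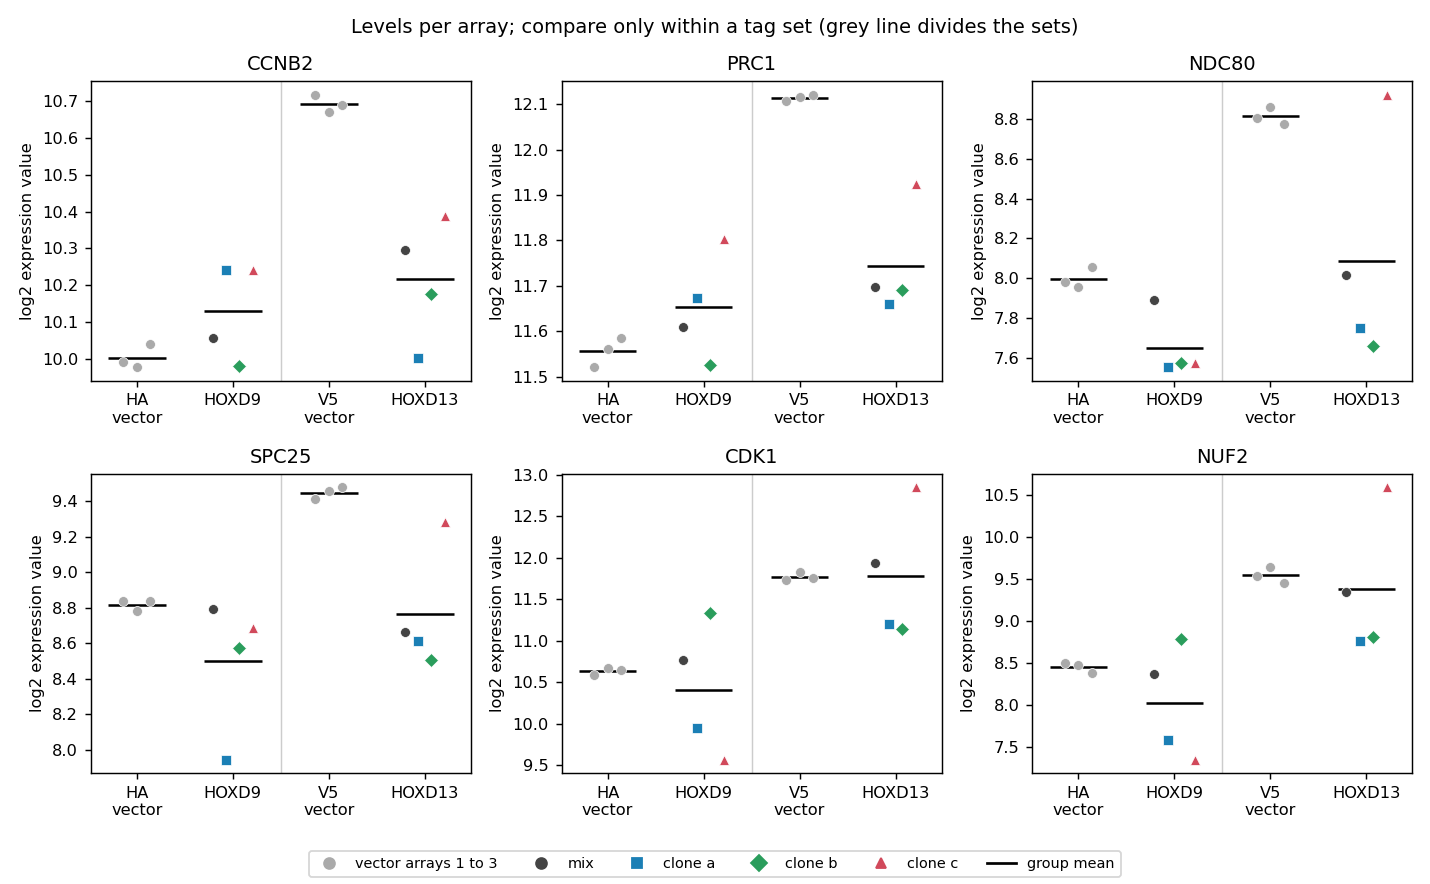
Log2 expression value on each array for 6 genes: vector arrays in grey, the mix and clones a, b and c by symbol, with the mean of each group as a bar; the left and right part of each panel are separate tag sets. All HOXD13 lines lie below the V5 vectors for CCNB2, PRC1 and SPC25, while for CDK1, NUF2 and NDC80 clone c (12.85, 10.60 and 8.92) stands above them.

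Of the 6 mitotic kinases, 5 were tested and 0 were called in either comparison. PLK1, the polo kinase of mitotic entry and centrosome maturation, did not pass the filter. Its single probe set read 4.12, 4.21 and 4.16 in the HA vectors, 4.15, 4.46, 4.10 and 5.05 in the HOXD9 lines, 4.32, 4.23 and 4.22 in the V5 vectors and 4.59, 4.59, 4.85 and 3.14 in the HOXD13 lines. These are dim values, and clone c was the highest HOXD9 line and the lowest HOXD13 line. NEK2, a centrosome kinase, was the most even gene of the HOXD13 lines, at 10.93 ± 0.02 in 4 lines against 10.75 ± 0.04 in the vectors, with all lines above (0.18, adjusted p = 0.658). This held on its brightest probe set only. The other tested NEK2 probe set read 6.92 ± 0.10 in the HOXD13 lines against 6.89 ± 0.06, and the groups overlapped (0.04). NEK2 spread widely among the HOXD9 lines, at 9.49 ± 0.56 against 9.93 ± 0.07. BUB1, a checkpoint kinase of the kinetochore, lay below the vectors in all HOXD13 lines (8.95 ± 0.16 against 9.22 ± 0.04, -0.27, adjusted p = 0.152). BUB1B, its paralog in the checkpoint complex, stayed within 0.07 log2 of the V5 mean in all HOXD13 lines. AURKA, the spindle pole kinase, lay above the HA vectors in all HOXD9 lines (9.47 ± 0.22 against 9.23 ± 0.03, 0.24, adjusted p = 0.223). TTK, which starts checkpoint signalling, read 7.83 and 7.84 in HOXD9 clones a and c, below HA vectors at 8.46 ± 0.05, and 10.09 in HOXD13 clone c, above V5 vectors at 9.51 ± 0.08.

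The checkpoint proteins and their target, the anaphase-promoting complex (APC/C), gave 0 calls among 5 genes in both comparisons. MAD2L1, the MAD2 protein that inhibits CDC20 until chromosomes are attached, had the lowest estimate of the HOXD9 lines and the widest spread. It read 11.68, 11.70 and 11.72 in the HA vectors and 11.49, 9.80, 11.98 and 10.10 in the HOXD9 mix and clones a, b and c. Clones a and c lay far below the vectors and clone b above (-0.85, SE 0.42, adjusted p = 0.228). On its other tested probe sets clone a read 10.11 against HA vectors at 10.36 ± 0.04, a smaller gap, and 5.58 against 6.75 ± 0.02. In the V5 vectors MAD2L1 read 12.31, 12.35 and 12.20 and in the HOXD13 lines 12.09, 11.99, 11.83 and 12.71 (-0.13, adjusted p = 0.880). CDC20, the APC/C activator that MAD2 restrains, lay above the HA vectors in all HOXD9 lines, with shifts of 0.20, 0.29, 0.12 and 0.76 from the vector mean (0.34, adjusted p = 0.277). UBE2C, the ubiquitin-conjugating enzyme of the APC/C, read 11.44 ± 0.22 in the HOXD9 lines against 11.27 ± 0.01, and 11.56 ± 0.24 in the HOXD13 lines against 11.70 ± 0.04. PTTG1, the securin that the APC/C destroys, lay below the vectors in all HOXD13 lines (12.12 ± 0.12 against 12.33 ± 0.05, adjusted p = 0.239). BUB3, a partner of BUB1 and BUB1B, did so too, with clone c at 13.02 beside the lowest vector, from which it differed by less than the rounding shows (12.83 ± 0.12 against 13.04 ± 0.02, adjusted p = 0.336). On another tested BUB3 probe set all HOXD13 lines again lay below, but on the rest clone c lay above or among the V5 vectors. There clone c read 11.99 against 11.91 ± 0.06, 11.35 against 11.24 ± 0.05 and 5.62 against 5.67 ± 0.28.

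The chromosomal passenger complex corrects faulty attachments through AURKB (the kinase), INCENP (its scaffold), BIRC5 (survivin) and CDCA8 (borealin). On their brightest probe sets its 3 tested genes lay above the HA vectors in every HOXD9 line, as did 22.4% of all genes. Of these 3 genes, 0 were called. On another tested BIRC5 probe set clone b read 8.25, below the HA vectors at 8.47 ± 0.02, and the estimate was 0.13. On the remaining tested BIRC5 probe set all HOXD9 lines lay above the vectors (0.50). AURKB read 8.98, 8.96 and 8.96 in the HA vectors and 9.29, 9.26, 9.12 and 9.67 in the HOXD9 lines (0.37, SE 0.12, adjusted p = 0.149). In the V5 vectors it read 9.48, 9.56 and 9.64 and in the HOXD13 lines 9.42, 9.39, 9.59 and 9.38, so these groups overlapped (-0.12, adjusted p = 0.580). CDCA8 read 8.93, 8.97 and 8.83 in the HA vectors and 9.14, 9.18, 9.01 and 9.78 in the HOXD9 lines (0.36, adjusted p = 0.291). In the V5 set CDCA8 read 9.27, 9.47 and 9.58 against 9.77, 9.88, 10.09 and 9.14, with the mix and clones a and b above the vectors and clone c below (0.28, adjusted p = 0.444). BIRC5 split the same way, at 11.52, 11.54 and 11.76 in the HOXD13 mix and clones a and b and 10.98 in clone c, against 11.25 ± 0.04 (0.21, adjusted p = 0.474). INCENP did not pass the filter, with 3.63, 3.47 and 3.44 in the HA vectors, 3.38, 3.82, 3.40 and 3.55 in the HOXD9 lines, 4.53, 4.44 and 4.45 in the V5 vectors and 4.76, 4.71, 5.39 and 4.23 in the HOXD13 lines.

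In the NDC80 complex, the rod that binds spindle microtubules at the kinetochore, NDC80 and SPC25 stood lower in the HOXD13 mix and clones a and b and missed the threshold. NDC80 read 8.80, 8.86 and 8.78 in the V5 vectors and 8.02, 7.75, 7.66 and 8.92 in the HOXD13 mix and clones a, b and c. Clone c alone lay above the vectors (-0.73, SE 0.23, adjusted p = 0.0636). SPC25 read 9.41, 9.46 and 9.48 in the V5 vectors and 8.67, 8.61, 8.50 and 9.28 in the HOXD13 lines, all below the vectors and clone c the nearest (-0.68, SE 0.20, adjusted p = 0.0503). With 10 other settings of the processing SPC25 was called in 6 and NDC80 in 3. NUF2, the partner of NDC80 in the outer end of the rod, read 9.54, 9.64 and 9.46 in the V5 vectors and 9.35, 8.77, 8.81 and 10.60 in the HOXD13 lines (-0.17, adjusted p = 0.838). All 3 subunits lay below the vectors in clones a and b, and in clone c NDC80 and NUF2 lay above all vectors and SPC25 below them. In the HA set NDC80 read 7.98, 7.96 and 8.06 in the vectors and 7.89, 7.55, 7.57 and 7.57 in the HOXD9 lines, all below (-0.35, adjusted p = 0.335). SPC25 there read 8.84, 8.78 and 8.84 against 8.79, 7.95, 8.57 and 8.69, with the mix among the vectors (-0.32, adjusted p = 0.321).

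CENPE, the kinesin that carries chromosomes to the spindle equator, had the highest estimate of the HOXD9 lines, but it was under 5 on all 7 arrays of the HA set and passed the filter through the V5 set. The HA vectors all read 2.54, a level at the floor of the array, and the HOXD9 mix and clones a, b and c read 3.91, 3.52, 4.04 and 3.68. All 4 lines lay above the vectors (1.25, SE 0.46, adjusted p = 0.163), a difference from a group at the floor, whose size is not measured. In the V5 vectors CENPE read 5.95, 5.92 and 5.97, and in the HOXD13 lines 6.96, 5.46, 5.93 and 8.22, the widest spread of any gene of the group (0.69, SE 0.46, adjusted p = 0.368). CENPA, the centromeric histone, read 6.01 ± 0.20 in the HOXD9 lines, all above the HA vectors at 5.72 ± 0.06 (adjusted p = 0.164), and 6.61 ± 0.06 in the HOXD13 lines against 6.65 ± 0.09. CENPF, a kinetochore protein that accumulates in G2, read 8.18 ± 0.29 against 8.11 ± 0.03 in the HA set and 9.98 ± 0.32 against 9.73 ± 0.03 in the V5 set, and the lines overlapped the vectors in both.

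PRC1 was the called gene of the spindle and cytokinesis group, which held 6 genes. It read 12.11, 12.12 and 12.12 in the V5 vectors and 11.70, 11.66, 11.69 and 11.92 in the HOXD13 mix and clones a, b and c. All lines lay below the vectors, and clone c stood apart from the close values of the other 3. PRC1 fell by 0.37 (SE 0.10, 1.29-fold, adjusted p = 0.0297), and 9 of the 14 fits with 1 array left out ended the call (adjusted p up to 0.115). These were the fits without any 1 of the 6 vectors, the HOXD13 mix, clone a or clone b, while the estimate stayed between -0.43 and -0.34. In the HA set PRC1 read 11.52, 11.56 and 11.59 in the vectors and 11.61, 11.67, 11.53 and 11.80 in the HOXD9 lines (0.10, adjusted p = 0.502). The effects differed by 0.47 (SE 0.14, adjusted p = 0.0487), the HOXD9 effect being the higher, a call that held without HOXD9 clone b, HOXD9 clone c or HOXD13 clone c and ended in each of the other fits with 1 array left out (adjusted p up to 0.126). CCNB2 and PRC1 were the 2 of 31 genes called for a difference of effects, against 9.63% of all genes (8.12% with the HOXD9 effect higher and 1.52% with it lower), and the median difference of the 31 was 0.15 against 0.04.

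HMMR, a spindle pole adaptor that binds TPX2, had the widest split between clones of the HOXD13 lines after CENPE. It read 10.11, 10.17 and 10.06 in the V5 vectors and 9.65, 8.57, 8.53 and 11.05 in the HOXD13 lines, with clones a and b low and clone c high (-0.67, SE 0.50, adjusted p = 0.423). In the HOXD9 lines clones a and c were the low ones: HMMR read 8.67, 8.65 and 8.78 in the HA vectors and 8.66, 7.86, 9.09 and 7.82 in the mix and clones a, b and c (-0.34, adjusted p = 0.645). ECT2, the RhoA exchange factor that starts cleavage, read 9.12, 9.17 and 9.11 in the HA vectors and 8.77, 7.57, 9.03 and 7.99 in the HOXD9 lines, all below the vectors and clone b barely so (-0.79, SE 0.33, adjusted p = 0.182). In the V5 set ECT2 read 10.14, 10.28 and 10.08 against 9.98, 9.89, 9.72 and 10.92 (-0.04, adjusted p = 0.959). ASPM, a spindle pole protein, reached 11.31 in HOXD13 clone c, against 10.02 ± 0.04 in the vectors, and 7.68 in HOXD9 clone c, against 8.03 ± 0.08. Its other tested probe sets were also high in HOXD13 clone c (9.03 against 7.38 ± 0.08 and 7.39 against 6.21 ± 0.08). They were not low in HOXD9 clone c (6.14 against 6.08 ± 0.06 and 5.07 against 4.90 ± 0.03). NUSAP1, a microtubule bundler, lay below the HA vectors in all HOXD9 lines (11.20 ± 0.27 against 11.47 ± 0.04, adjusted p = 0.288). TPX2, which activates AURKA on the spindle, read 10.15 ± 0.22 against 10.06 ± 0.03 in the HA set and 10.17 ± 0.24 against 10.40 ± 0.05 in the V5 set (adjusted p = 0.655 and 0.334).

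**Figure D3:**
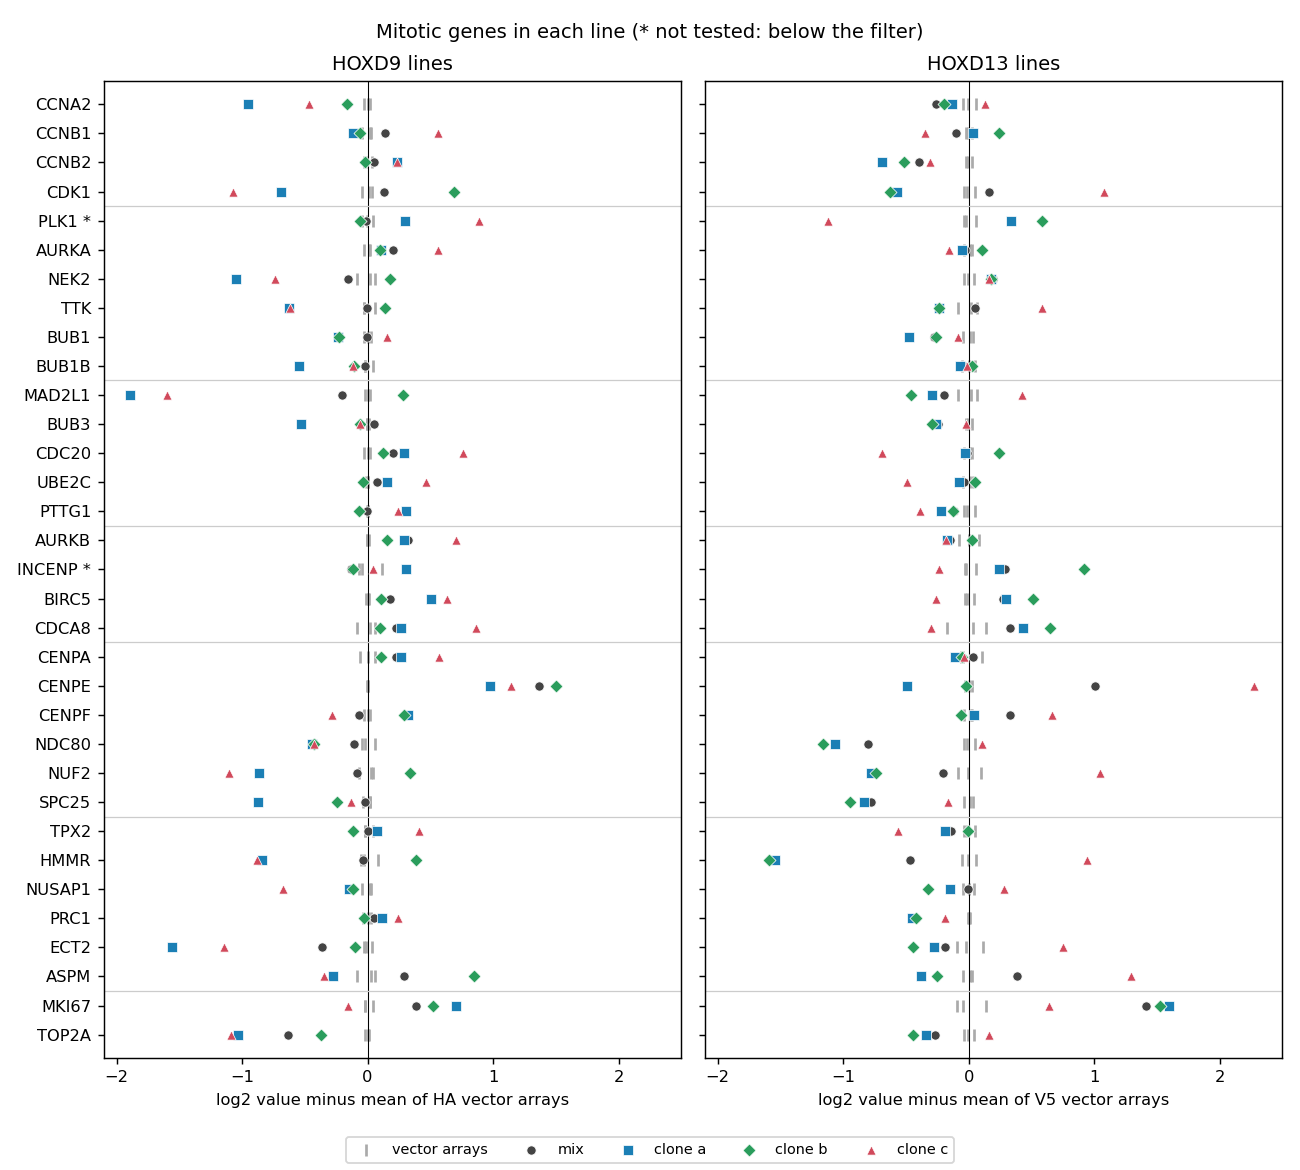
Log2 value minus the mean of the vector arrays of the same tag for all 33 genes, ordered by role (grey lines divide the roles), in the HOXD9 lines on the left and the HOXD13 lines on the right; ticks are vector arrays and symbols are lines. CCNB2, PRC1 and SPC25 lie to the left of the ticks in all HOXD13 lines, whereas clone c (triangles) lies opposite to clones a and b for CDK1, NUF2 and HMMR.

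TOP2A, the topoisomerase that untangles sister chromosomes, was the gene nearest to a call in the HOXD9 lines. It read 11.72, 11.69 and 11.73 in the HA vectors and 11.08, 10.68, 11.34 and 10.63 in the HOXD9 mix and clones a, b and c. All lines lay below the vectors (-0.78, SE 0.18, adjusted p = 0.147), and its other tested probe set gave -0.69. In the V5 set TOP2A read 12.53, 12.61 and 12.56 against 12.30, 12.22, 12.12 and 12.73, with clone c above the vectors (-0.22, adjusted p = 0.453). Over the 31 genes, all HOXD9 lines lay above all HA vectors in 7 (22.4% of all genes) and below in 5 (14.1% of all genes). All HOXD13 lines lay above the V5 vectors in 2, MKI67 and NEK2 (8.59% of all genes), and below in 6 (20.3% of all genes): CCNB2, BUB1, BUB3, PTTG1, SPC25 and PRC1. These counts use the brightest probe set of each gene, and not every other tested probe set repeated them. The lines overlapped the vectors on the other tested probe set of NEK2 (HOXD13 lines) and of CCNA2, AURKA and NUSAP1 (HOXD9 lines). They also overlapped on some of the other tested probe sets of BUB3 (HOXD13 lines) and BIRC5 (HOXD9 lines).

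MKI67, which encodes the Ki-67 protein that coats mitotic chromosomes and is the usual stain for cycling cells, gave opposite answers on its 4 probe sets in the HOXD13 lines. On the brightest probe set it read 9.66, 9.71 and 9.89 in the V5 vectors and 11.16, 11.35, 11.28 and 10.39 in the HOXD13 mix and clones a, b and c. All lines lay above the vectors, by 1.29 (SE 0.23, 2.45-fold, adjusted p = 0.00493 over genes), and the call held in each of the 14 fits with 1 array left out. The second probe set read 8.66, 8.62 and 8.68 against 9.12, 9.18, 9.19 and 8.77, also with all lines above (0.41, adjusted p = 0.132 over probe sets). The third read 8.29, 8.46 and 8.53 against 6.56, 6.34, 7.03 and 7.996, with all lines below, and was called lower (-1.45, SE 0.31, adjusted p = 0.0148), as 1 of the 8.68% of all probe sets called in this comparison. The dimmest read 6.85, 6.66 and 6.77 against 4.50, 3.02, 4.12 and 6.30, with all lines below, and was called lower (-2.27, SE 0.56, adjusted p = 0.0261). On every probe set clone c was the line nearest to the vectors. The mean of the 4 probe sets gave -0.50 (adjusted p = 0.110), so the direction of MKI67 depends on the probe set. The positions of the probe sets in the transcript were not used here.

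**Figure D4:**
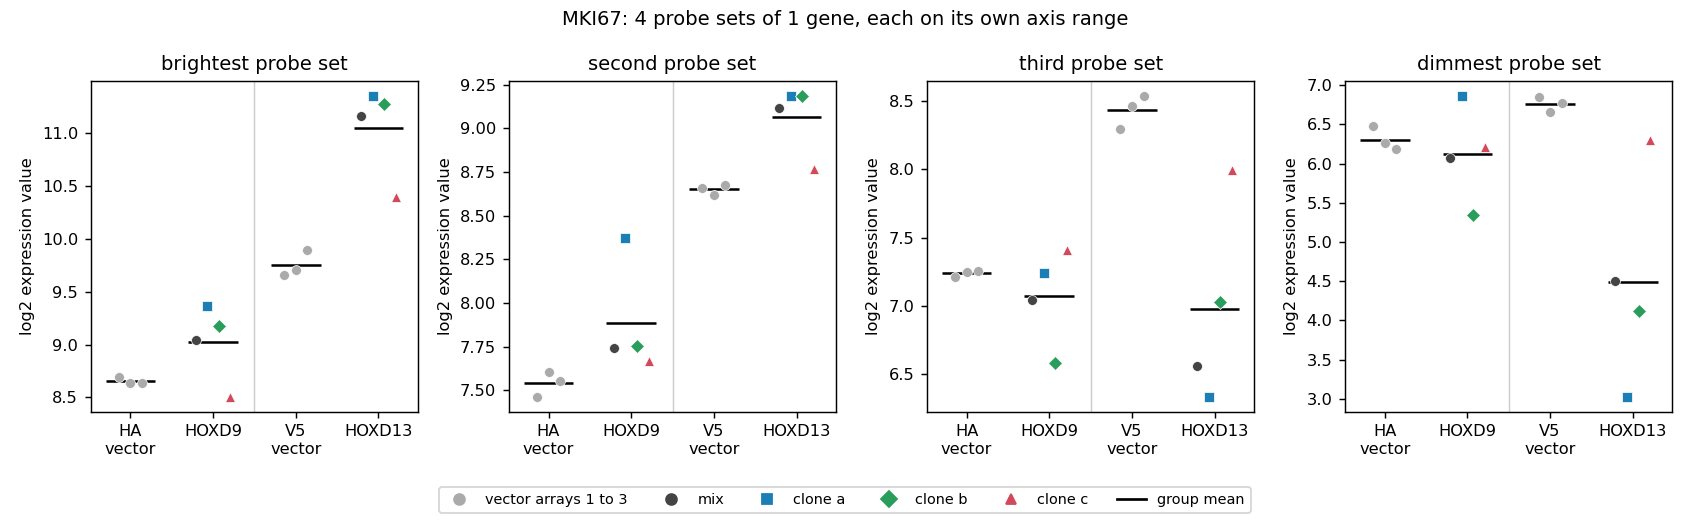
Log2 expression value of the 4 MKI67 probe sets on each array, from the brightest to the dimmest, each panel with its own axis range; symbols are the vector arrays and lines, bars the group means, and the grey line divides the tag sets. In the HOXD13 lines the first 2 panels lie above the V5 vectors (by 1.29 and 0.41) and the last 2 below (by 1.45 and 2.27).

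In the HOXD9 lines the brightest MKI67 probe set read 8.70, 8.64 and 8.63 in the HA vectors and 9.05, 9.37, 9.18 and 8.51 in the mix and clones a, b and c (0.37, adjusted p = 0.307), and the 4 probe sets gave 0.37, 0.34, -0.17 and -0.19, with 0 called (0.0303% of all probe sets were). Besides MKI67, 13 of the 31 genes had more than 1 tested probe set, and 17 had 1. Of those 13, 0 had any probe set called in either comparison, so their calls could not disagree. In the HOXD13 comparison the estimates of 1 gene had the same sign in 9 of 14 genes, MKI67 included in the 14, and in the HOXD9 comparison in 8 of 14. The largest range without MKI67 was 0.69, for BUB3 in the HOXD13 lines, where all 5 probe sets were below 0, and 0.38 for CCNA2 in the HOXD9 lines. CCNB2 and PRC1 had 1 tested probe set each.

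The mitotic genes varied far more between lines than between vector arrays. The median SD of the 31 genes was 0.03 in the HA vectors, 0.29 in the HOXD9 lines, 0.04 in the V5 vectors and 0.27 in the HOXD13 lines, beside 0.05, 0.27, 0.05 and 0.26 over all genes. In the HOXD9 lines the widest were MAD2L1, CDK1 and ECT2 (SD 1.06, 0.79 and 0.68) and the tightest PRC1, CCNB2 and NDC80 (0.12, 0.13 and 0.16). In the HOXD13 lines the widest were CENPE, HMMR and NUF2 (1.23, 1.19 and 0.85) and the tightest NEK2, BUB1B and CENPA (0.02, 0.04 and 0.06).

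The HOXD13 lines differed in which genes lay low. More than 0.5 log2 below the vector mean were NDC80 and SPC25 in the mix (10.7% of all genes lay that low), and CCNB2, CDK1, NDC80, NUF2, SPC25 and HMMR in clone a (14.8%) and also in clone b (17.9%). More than 0.5 above were MKI67 and CENPE in the mix (11.2% of all genes), MKI67 in clone a (15.4%) and MKI67, BIRC5 and CDCA8 in clone b (17.9%). In clone c 2 genes lay that low, CDC20 and TPX2 (16.1% of all genes), and 9 lay more than 0.5 above (10% of all genes): CDK1, TTK, CENPE, CENPF, NUF2, HMMR, ECT2, ASPM and MKI67. The median shifts of the 31 genes were -0.10, -0.22, -0.20 and -0.01 in the mix and clones a to c, beside -0.02, -0.04, -0.04 and -0.13 over all genes. All 4 lines are set against the same V5 vectors, so genes that 2 lines have in common are given as values and not as a result.

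Without clone c limma called 8 of the 31 genes in the HOXD13 comparison (25.8%), against 35.8% of all genes (18.9% higher and 16.8% lower). Of the 14 fits with 1 array left out, which called 1 to 8, this fit called the most. Leaving out the line that stood apart narrows the spread, so its p-values are a description. HMMR fell by 1.20 (adjusted p = 0.0143), NDC80 by 1.01 (adjusted p = 4.68e-05), SPC25 by 0.85 (adjusted p = 0.00210), CCNB2 by 0.53 (adjusted p = 0.00141), PRC1 by 0.43 (adjusted p = 0.00175) and BUB1 by 0.34 (adjusted p = 0.0304). MKI67 rose by 1.51 on its brightest probe set (adjusted p = 4.68e-05) and BIRC5 by 0.36 (adjusted p = 0.0471). The median of the 31 genes was then -0.14, beside -0.03 over all genes. In the same fit, which shares 1 spread over all groups, 2 genes were called in the HOXD9 comparison, against 10.6% of all genes: TOP2A (-0.78, adjusted p = 0.0232) and CENPE (adjusted p = 0.0293), whose HA vectors are at the floor, so that no size is given. Without HOXD9 clone b 3 were called there, against 8.5% of all genes: TOP2A (-0.92), NEK2 (-0.65) and AURKB (0.44). For HOXD9 this fit too called the most of the 14 fits (0 to 3). NEK2 was read there by its brightest probe set. On its other tested probe set HOXD9 clone a read 6.44, above the HA vectors at 6.23 ± 0.05. The mix and clone c read 5.92 and 5.78, below them.

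In the HOXD9 set clones a and c carried most of the deviations. By the brightest probe set of each gene, 12 of the 31 genes in clone a lay more than 0.5 below the vector mean (16.2% of all genes) and 3 above (12.9%). In clone c 9 lay below (23.5%) and 8 above (29.9%). The mix had 1 gene on each side (TOP2A low, CENPE high), against 1.23% and 2.07% of all genes, and clone b had 4 above (CDK1, CENPE, ASPM and MKI67, against 1.92%) and 0 below (0.3%). The median shifts of the mix and clones a, b and c were 0.01, -0.15, 0.10 and -0.11, beside 0.04, 0.11, 0.00 and 0.20 over all genes. Other tested probe sets did not all repeat the low values of clone a. CDK1 and NEK2 lay above the HA vectors on theirs, and CCNA2 beside the lowest vector (both 7.97). BUB3 lay above on some (11.88 against 11.74 ± 0.03) and below on others (4.37 against 4.98 ± 0.04). MAD2L1, HMMR (6.37 against 6.82 ± 0.04) and TOP2A (10.17 against 11.25 ± 0.01) lay below on all of theirs. BUB1B, SPC25, ECT2, NUF2 and TTK had 1 tested probe set each.

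Clone c of HOXD9 and clone c of HOXD13, which share no vector arrays, mostly departed in opposite directions. They lay on opposite sides of their vectors in 27 of the 31 genes (87.1%), but so did 82.9% of all genes. Spearman's rho of the shifts was -0.65 over the 31 genes and -0.77 over all genes tested, a description over genes that are not independent and share the array's base composition. The 9 genes low in HOXD9 clone c and the 9 high in HOXD13 clone c had 5 in common (55.6% of each): CDK1, ECT2, HMMR, NUF2 and TTK. Over all genes the overlap was 30.6% of the low genes of HOXD9 clone c and 71.6% of the high genes of HOXD13 clone c. CENPE was high in both clones, with shifts of 1.14 (from vectors at the floor) and 2.27. HOXD9 clone c and HOXD13 clone b had a rho of 0.65 over the 31 genes and 0.41 over all. Over the 31 genes these were the lowest and the highest rho among all pairs of a HOXD9 and a HOXD13 line. HOXD9 clone b and HOXD13 clone c, with 0.48 over the 31 genes and -0.23 over all, were the only pair whose signs differed.

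**Figure D5:**
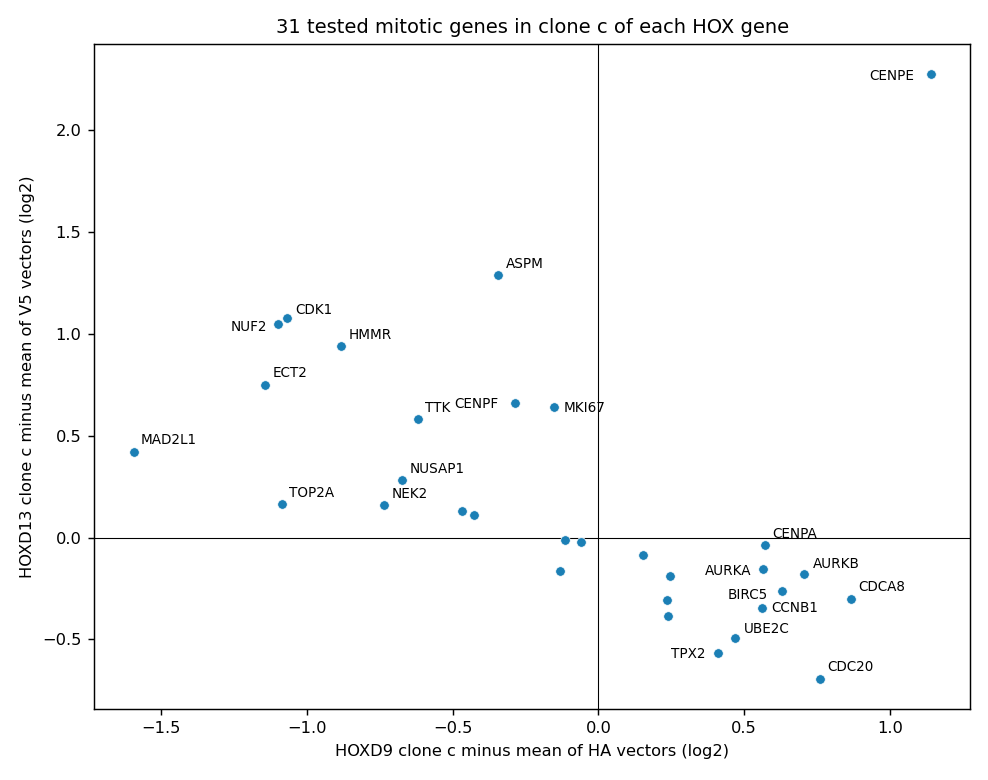
Shift from the vector mean (log2) of the 31 tested mitotic genes in HOXD9 clone c (x) and HOXD13 clone c (y), 1 point per gene. Of the 31 points, 27 lie in the upper left or lower right, and CENPE (1.14 and 2.27) lies alone in the upper right.

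An RNA-quality value also differed between the lines. The 3′ minus 5′ difference of the ACTB control probe sets, which grows when the 5′ end of transcripts is under-represented, departed from the vector mean by -0.07, -0.62, 0.03 and -0.23 in the HOXD9 mix and clones a, b and c, and by -0.10, -0.23, -0.41 and 0.57 in the HOXD13 lines. Clone c of HOXD13 was thus the one far above and HOXD9 clone a the one farthest below. With that difference as a covariate limma called 6 genes in the HOXD13 comparison, against 25.1% of all genes: CCNB2 (-0.47), PTTG1 (-0.23), NDC80 (-0.69), SPC25 (-0.64), PRC1 (-0.37) and MKI67 (1.26). In the HOXD9 comparison it called TOP2A (-0.62) and CENPE, against 0.483% of all genes, the latter again from HA values that are all under 5. Without the 3 arrays that departed by more than 0.4, an alternative chosen after the data were seen, 7 were called in the HOXD13 comparison (31.5% of all genes) and 0 in the HOXD9 comparison (0.986% of all genes). The shifts also correlated with the genomic length of the genes: in HOXD13 clone c Spearman's rho was 0.57 over the 31 genes and 0.266 over all, and in HOXD9 clone c -0.33 and -0.341. Other lines had it too: rho over all genes was -0.365 in the HOXD9 mix and -0.316 in HOXD9 clone b, with -0.21 and 0.01 over the 31 genes. Over all genes rho was below 0 in every line except HOXD13 clone c. The part of length in the results was not tested.

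Other genes of the same programme were counted from lists chosen with earlier results known. The shares over all genes, 2.88% higher and 7.76% lower in the HOXD13 lines with a median of -0.03, stand beside these counts. Of 88 further mitotic genes tested, 0 rose and 5 fell in the HOXD13 lines, with a median of -0.07. CENPH, of the inner kinetochore, fell from 10.41 ± 0.16 (n = 3) to 9.47 ± 0.48 (n = 4), by 0.94 (adjusted p = 0.0192), and CENPI, its partner, fell from 5.34 ± 0.36 to 4.79 ± 0.21, by 0.55 (adjusted p = 0.0405), dim values around the filter value of 5. Of 22 transcriptional regulators of mitotic genes, 0 rose and 4 fell, with a median of -0.18. E2F5, a repressor subunit of DREAM, fell by 0.69 (adjusted p = 0.0163), E2F7, an atypical E2F repressor, fell by 0.48 (adjusted p = 0.0397), and the others were E2F2 and MYBL2, the activator B-MYB (-0.34, adjusted p = 0.0349). Of 38 S phase genes 1 rose and 2 fell, with a median of -0.07: CDC45, of the replicative helicase, fell by 0.74 (adjusted p = 0.00593), and FEN1, which trims Okazaki fragments, was called higher by 0.68 (adjusted p = 0.04997). With each array left out in turn, the CDC45 call held in all 14 fits. The calls of CENPH, CENPI, E2F5, E2F7 and FEN1 ended in 6, 9, 4, 10 and 12 of them, each time including the fits without any 1 of the V5 vectors. For HOXD9 limma called 0 genes of these lists, with 18 of the 88, 8 of the 22 and 8 of the 38 at an unadjusted p under 0.05, against 23.5% of all genes. Without HOXD13 clone c the HOXD13 counts were 9 higher and 9 lower of the 88, 1 and 9 of the 22, and 4 and 9 of the 38, against 18.9% of all genes higher and 16.8% lower.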

How the data were processed

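RNA of 14 HEK293 samples was measured on Affymetrix arrays. The deposited values are log2 expression values made by the authors with GCRMA (background correction, normalization and summary per probe set), per the submitters' processing notes; the log2 scale was read from the values, and the software version is not given in the sources used here. The sorted values agreed to within 0.00195 log2 among the 7 arrays of a tag set and differed between the 2 sets, so levels were compared within a set. Of 54675 probe sets, 19816 reached 5 on at least 3 arrays; each gene was read by its brightest single-symbol probe set, with symbols updated through RefSeq GRCh38.p14 (41043 of 41097 matched). Group means over all 14 arrays were fitted with limma 3.58.1 in R 4.3.3 (10 residual degrees of freedom), two-sided, Benjamini-Hochberg over 10349 genes. The code was tested on simulated data. Members and lists were chosen with earlier results of these data known. Fully described were called members, the 3 largest estimates in each direction and comparison, members with opposed probe sets or below the filter, and CDK1, CCNB1, PLK1 and TOP2A; the remaining members are given more briefly. Alternatives changed the probe set rule, filter, arrays, spread model, centring and RNA-quality covariate, or left out each array.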

Additional observations from a re-analysis of the deposited data

Results flagged for a closer look

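In the 4 lines of a HOX gene, 1 line stood apart from the other 3 by Dixon's 95% limit in 6 of 66 sets of values. Chance alone gives about 1 in 20 when values are independent. The clones came out of the mix and the 66 sets share the same arrays, so this rate is no test of the count. In the HOXD13 lines clone c was the line apart for PLK1 at 3.14, BUB3 at 13.02 and PRC1 at 11.92, and clone b for AURKB at 9.59. In the HOXD9 lines the mix was apart for NDC80 at 7.89 and clone c for NUSAP1 at 10.80. PLK1 lies below the filter on low values, and HOXD13 clone c also has the highest ACTB 3′ minus 5′ difference, 0.57 above the V5 vector mean.

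The effect of HOXD9 minus that of HOXD13 passed the test of the difference for CCNB2, at 0.60 (adjusted p = 0.0279, limma), and for PRC1, at 0.47 (adjusted p = 0.0487, limma). All 4 HOXD13 lines lay below their vectors for both genes, and the HOXD9 lines overlapped theirs. Among all genes 8.12% passed in that direction. The HOX gene, the tag and the normalization set change together in this difference and cannot be told apart.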

How the results depend on the processing

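No paired analysis was possible because the lines are labelled mix, a, b and c and share no replicate number with the vector arrays. The number of mitotic genes called was 0 for HOXD9, 3 for HOXD13 and 2 for the difference of effects. It was 2, 6 and 4 with the ACTB covariate. Without the 3 arrays of deviating ACTB difference, it was 0, 7 and 5. With array weights by group, the HOXD13 number was 5. With centred arrays, the difference gave 1, and without the mixed populations 0. Leaving out 1 array gave 0 to 3 for HOXD9, 1 to 8 for HOXD13 and 0 to 5 for the difference. MKI67 in the HOXD13 lines turned from 1.29 to -0.50 with the mean of its probe sets. The PRC1 call in the HOXD13 lines ended with the V5 arrays alone (adjusted p = 0.0504), with centred arrays (adjusted p = 0.0504) and without the mixed populations (adjusted p = 0.112), and calls of SPC25 and NDC80 appeared with array weights (adjusted p = 0.00884 and 0.0127), the ACTB covariate (0.00135 and 0.00356) and without the deviating arrays (0.000159 and 0.000433). SPC25 was also called with the mean of probe sets (adjusted p = 0.0481), the stricter filter (0.0491) and eBayes with trend and robust (0.0498). The difference call of CCNB2 ended without the mixed populations (adjusted p = 0.0581), and that of PRC1 there too (adjusted p = 0.117) and with centred arrays (adjusted p = 0.0863). The cause of these changes was not tested.

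Over all genes, 1 was called for HOXD9, 1101 for HOXD13 and 997 for the difference. The HOXD9 number was 2 with the mean of probe sets, 6 with no filter, 0 with the HA arrays alone, 50 with the ACTB covariate, 0 without the mixed populations and 102 when the deviating arrays were left out. The HOXD13 number was 1772 with array weights, 2596 with the ACTB covariate, 429 without the mixed populations and 3259 without the deviating arrays. The difference gave 2025, 506 and 2058 under the last 3. Leaving out 1 array gave 0 to 1100, 303 to 3701 and 384 to 2299. The medians of the 31 genes kept their sign with 1 array left out for HOXD13 (-0.14 to -0.07) and the difference (0.03 to 0.20) and not for HOXD9 (-0.03 to 0.08). Signal near the array floor limits CENPE, PLK1 and INCENP.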
